A study of Mus musculus with 1814 samples.

Results

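The cells described here were Dec+ dark zone cells of the mouse germinal center whose cell cycle phase the authors had called G1. They were chosen by 2 labels: the sort label of each well (Dec+, dark zone, experiments 3 and 4) and the phase given in the deposited cell table. These criteria held for 32.9% of the 501 Dec+ dark zone cells of the 2 experiments: 89 cells of experiment 3, beside 81 called S and 77 called G2M, and 76 cells of experiment 4, beside 90 and 88. The whole series held 1814 samples. Each sample was 1 cell, index-sorted into a well and sequenced from full-length cDNA by SmartSeq2, a method without molecular identifiers. The cells had been taken at 12, 30, 46 and 60 h. Experiment 3 gave 26, 25, 20 and 18 G1 cells at these times, and experiment 4 gave 23, 15, 13 and 25. The labels gave no genotype for these cells, did not define Dec or the start of the clock, and named no animal, and each plate held wells of all conditions.

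Germinal center B cells divide and mutate their antibody genes in the dark zone and are selected by T cells in the light zone. In G1, D-type cyclins bind CDK4 and CDK6, which phosphorylate the retinoblastoma family of pocket proteins and so release E2F factors, which act with DP partners on genes of DNA replication. Cyclin D3, encoded by Ccnd3, is the D cyclin that germinal center B cells are known to need, and the study is named for its role in dark zone cycling. The comparison below asked how RNA and sort measures of G1 cells differed from those of cycling S and G2M cells of the same experiment and time, and how they varied over time.

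The authors' phase followed 2 scores per cell, 1 for S and 1 for G2M genes. All G1 cells had both scores below 0, and all 336 other cells had at least 1 score above 0. The higher of the 2 scores had a median of -0.662 in G1 cells and 1.05 in the others. The G1 cells nearest the limit had -0.0561, -0.0249 and -0.00462, and the nearest of the others had 0.00693, 0.0306 and 0.0384. Within 0.1 of the limit lay 10 G1 cells and 8 others, so that G1 here is a range of scores, and cells resting in G0 cannot be told apart from cells in G1. The phase was thus set by the RNA. The 98 tested genes of the public S and G2M score lists count in the totals of genes tested, but no test result is read for them. The tests on other genes compare classes that the same RNA defined. The sort intensities had no part in the call.

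Counts per G1 cell ran from 21936 to 471917 (median 219713), with 546 to 4326 genes detected. For gene comparisons the counts were summed over the cells of 1 experiment, time and phase. This gave 8 sums per phase, with 2562101 to 7137889 counts in a G1 sum and 1240812 to 9522577 over all 24 sums. Levels are given as CPM, counts scaled to the same total in every sum, thus a share of the RNA counted and not an amount per cell. Because the labels name no animals or cultures, p-values measure the spread between these sums, which came from 2 experiments and may be partly technical. The authors had marked 38 of the G1 cells, 35 of the S cells and 24 of the G2M cells as belonging to both zones, and 28 G1 cells had fewer than 1500 genes detected, against 5 S and 3 G2M cells.

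Markers fixed for the check of the label fitted germinal center B cells. All 9 markers of that class had counts, with a summed level of 8886 to 13800 CPM in G1 sums, 5967 to 9191 in S sums and 6447 to 8272 in G2M sums. Of the light zone markers all 3 were detected, at 719 to 4018 CPM in G1, 408 to 1912 in S and 413 to 1038 in G2M sums, and the 3 dark zone markers summed to 694 to 1359, 919 to 1495 and 1153 to 1841 CPM. Plasma cell markers summed to 1029 to 7737 CPM in G1, 1358 to 2163 in S and 1248 to 5310 in G2M sums, with 4 of 5 detected in G1. For T cells 8 of 9 markers were detected in G1 sums at 146.2 to 383.9 CPM, against 134.1 to 250.7 in S and 114.4 to 321.3 in G2M. Myeloid markers reached 42.15 CPM at most in a G1 sum, 21.02 in an S sum and 5.15 in a G2M sum. In the tables per plate the macrophage genes Lyz2, C1qa, C1qb and C1qc had 59, 5, 4 and 5 counts in all G1 cells together, Itgam had 0, and of the stromal genes Col1a2 had 1 count and Col1a1, Col3a1, Pdgfrb and Clu had 0. The part of these markers in the results below was not tested. Ccnd3, proposed as the gene that marks these cells, did not mark them: its share of RNA was lower in G1 than in S cells.

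Sort measures that had no part in the phase call set G1 cells apart. The FUCCI reporter signal, a fluorescent readout of cell cycle position whose construct the labels do not give, was lower in G1 cells than in G2M cells in 8 of 8 strata (a stratum is 1 experiment at 1 time). On a log2 scale of the arbitrary units, its median in G1 cells was 6.58 in experiment 3 and 7.13 in experiment 4. In S cells the medians were 7.38 and 7.95, and in G2M cells 12.53 and 10.47. The stratum medians of G1 and G2M cells did not overlap, at 6.46 to 7.28 and 7.48 to 13.40, although the lowest G2M median, at 46 h in experiment 4, lay close to the highest of G1. A G1 cell was the brighter of a pair with an S cell of its stratum in 25.4% of pairs (lower in 7 of 8 strata, adjusted p = 0.0268), and of a pair with a G2M cell in 19.8% (adjusted p = 0.0188). These p-values came from the exact two-sided permutation test that flips the sign of each stratum (n = 8), adjusted by Benjamini-Hochberg over 12 comparisons, and the smallest raw p it can give is 0.0078. With 1 experiment alone the smallest is 0.125, so no measure could pass in either.

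Above 1000 FUCCI units, a limit chosen after seeing the values, lay 4 G1 cells (2.42%, 95% exact binomial interval 0.664% to 6.09%, counting error only), 50 S cells (29.2%, 22.5% to 36.7%) and 94 G2M cells (56.97%, 49.04% to 64.6%). All 4 bright G1 cells came from the 23 taken at 12 h in experiment 4. Their median scores were -0.915 for S and -0.443 for G2M, against -0.846 and -0.811 in the other G1 cells.

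Surface CXCR4, the chemokine receptor that holds B cells in the dark zone and that was stained for the sort, was lower on G1 cells than on G2M cells in 8 of 8 strata (G1 brighter in 37.8% of pairs, exact permutation test, adjusted p = 0.0188). The medians in G1, S and G2M cells were 510, 557 and 590 units in experiment 3 and 490, 591.5 and 657 in experiment 4. Against S cells the same measure was 41.01% and did not pass (lower in 6 of 8 strata, adjusted p = 0.0703). The activation marker CD83, measured in the sort, had 47.015% of pairs brighter in G1 against S and 50.7% against G2M, and neither comparison passed (exact permutation, adjusted p = 0.511 and 0.891).

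G1 cells yielded fewer genes and fewer counts than both other phases. The median number of genes detected was 2054 in G1, 3135 in S and 3031 in G2M cells of experiment 3, and 1872, 3146.5 and 3152 in experiment 4. G1 cells were lower in 8 of 8 strata against each phase (G1 higher in 10.8% and 14.8% of pairs, exact permutation test, adjusted p = 0.0188 for both). With cells thinned to 20000 counts, leaving out 3 shallower cells (1 S and 2 G2M), the shares were 9.76% and 14.2%. Counts per cell were higher in the G1 cell in 32.8% of pairs with S (adjusted p = 0.0268) and 37.995% with G2M (adjusted p = 0.0188, exact permutation). The percent of mitochondrial reads did not pass in either comparison, at 45.1% and 55.05% of pairs (adjusted p = 0.125 and 0.225, exact permutation).

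**Figure D1:**
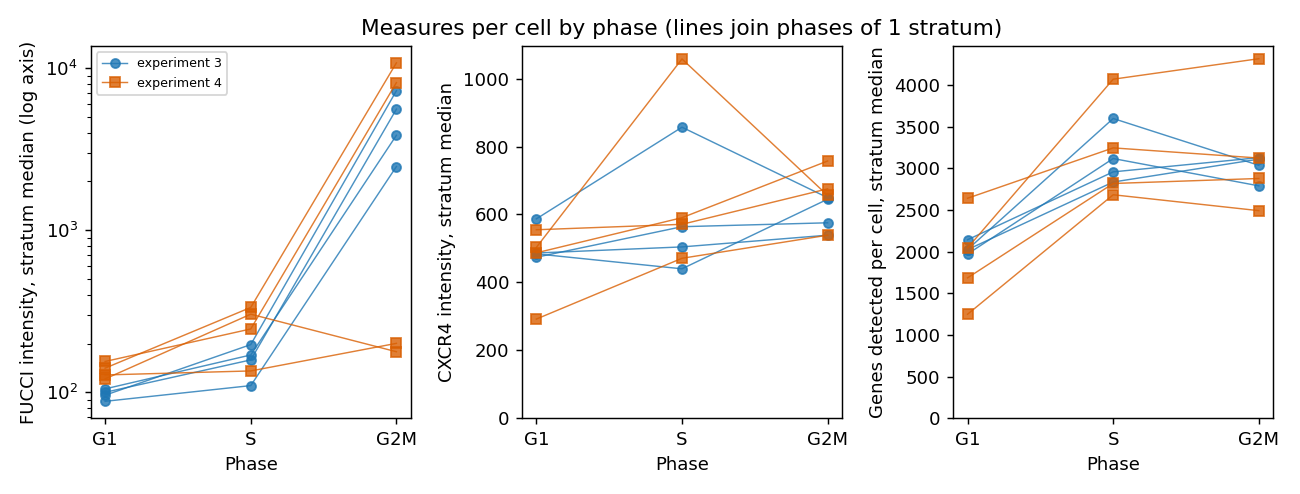
Median FUCCI intensity (arbitrary units, log axis), CXCR4 intensity (arbitrary units) and genes detected per cell, by phase; each point is the median of the cells of 1 stratum, lines join the phases of a stratum, circles are experiment 3 and squares experiment 4. FUCCI medians of G1 cells lie below those of G2M cells in all 8 strata, and genes detected are lowest in G1 in all 8.

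Most genes did not pass between G1 and the other phases, and most of those that passed were lower in G1. Of 10256 genes tested against S cells, 525 differed (5.12%), 402 of them lower in G1 (3.92%) and the rest, 1.2% of genes tested, higher. Against G2M cells 454 differed (4.43%), with 362 lower (3.53%) and 92 higher (0.897%). These totals and shares include the score genes, whose fall was set by the phase call, and so do the shares of all genes tested quoted further below. Outside the score lists 330 genes were lower than S and 293 lower than G2M, and none of the higher genes belonged to those lists. The median log2 ratio over all genes outside the score lists was -0.21 and -0.14, and -0.11 and -0.08 among genes with at least 20 CPM. The test was the quasi-likelihood test of edgeR with the stratum as block, with p-values adjusted by Benjamini-Hochberg over all genes tested and a threshold of 0.05. Both comparisons use the same G1 sums. They are therefore set side by side, and no overlap between them is read. For the genes that chose the cells, the S list had a median of 2543 CPM per G1 cell, 13928 per S cell and 7003 per G2M cell, and the G2M list had 2805, 8302 and 20383.

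Ccnd3 itself was lower in G1 than in S cells and not distinguishable from G2M cells. Its level in the 8 G1 sums was 416 CPM at the lowest, 546 at the median and 866 at the highest, against 782, 981 and 1243 in S and 538, 700 and 1005 in G2M sums. The G1 and S ranges overlapped, but in each stratum G1 was the lower. Means were 606 ± 175.7, 989 ± 190 and 715 ± 163.5 CPM (SD, n = 8 sums each). The log2 ratio of G1 to S was -0.73 ± 0.15 (SE, edgeR adjusted p = 0.0055), and that of G1 to G2M was -0.25 ± 0.15 (adjusted p = 0.532, lower in 7 of 8 strata). Ccnd3 lies at chr17:47505051-47599689 (mouse GRCm38.p6). Within 1 experiment the ratio to S was -0.92 in experiment 3 and -0.58 in experiment 4 and passed in neither (edgeR adjusted p = 0.104 and 0.206). Of the other D cyclins, Ccnd2 had 27.7 ± 48.6, 7.52 ± 18.7 and 5.10 ± 11.1 CPM in G1, S and G2M sums and Ccnd1 had 3.47 ± 5.75, 0.312 ± 0.882 and 3.68 ± 4.24, and neither passed.

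The kinase partners of cyclin D3 were lower in G1 than in both other phases. Cdk4 (chr10:127063535-127067288) ran from 101.4 to 339 CPM in G1 sums (median 234), from 405 to 809 in S (median 576) and from 262 to 593 in G2M (median 414). No G1 sum reached the lowest S sum, while G1 and G2M overlapped. The log2 ratio was -1.31 ± 0.20 to S (edgeR adjusted p = 0.000245) and -0.81 ± 0.19 to G2M (adjusted p = 0.0154), lower in 8 of 8 strata in both. Cdk6 (chr5:3341004-3531008) had 61.3 ± 41.02, 150.5 ± 36.4 and 168.8 ± 71.5 CPM, with ratios of -1.46 ± 0.36 (edgeR adjusted p = 0.0204) and -1.52 ± 0.36 (adjusted p = 0.0154). Without the cells marked for both zones the Cdk6 calls were lost (ratios -0.97 and -0.98, adjusted p = 0.314 and 0.334), and so was that of Cdk4 against G2M (adjusted p = 0.0917). With no replicate block the Cdk6 call against S was lost (adjusted p = 0.0541). When experiment 3 was left out the Cdk4 call against S was lost (edgeR adjusted p = 0.124). The Cdk4 call against G2M was lost when experiment 3 or experiment 4 was left out (adjusted p = 0.36 and 0.24). So were the Cdk6 calls against S (0.406 and 0.118) and against G2M (0.158 and 0.202). Cdk2, the partner of cyclins E and A, had 116.8 ± 68.2, 189.3 ± 61.1 and 124.6 ± 32.3 CPM and passed in neither comparison.

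Of 12 tested genes among 15 G1 kinases, inhibitors, pocket proteins and their partners, 2 were lower against S and 3 against G2M, and none was higher. Over all genes tested the lower shares were 3.92% and 3.53%. The third against G2M was Cdkn2d, an INK4 inhibitor of CDK4 and CDK6, with 73.1 ± 55.6 CPM in G1, 66.9 ± 32.0 in S and 170 ± 81.7 in G2M (edgeR ratio -1.51 ± 0.39, adjusted p = 0.0263, lost in 4 of 12 alternative settings). Another inhibitor of that family, Cdkn2c, had 13.3 ± 10.9, 23.6 ± 21.5 and 55.6 ± 29.2 CPM (adjusted p = 0.0595 against G2M). Cdkn1b, which encodes the inhibitor p27, had 7.13 ± 5.37, 6.30 ± 4.93 and 4.66 ± 4.23 CPM, and Cdkn1a, which encodes p21, had 0 counts in G1 sums. The pocket protein gene Rbl2 had 22.8 ± 16.8, 23.8 ± 25.9 and 32.9 ± 24.4 CPM, Rbl1 had 24.8 ± 26.3, 46.8 ± 30.5 and 43.5 ± 30.3, and Rb1 had 1.18 ± 2.64, 4.42 ± 6.16 and 2.34 ± 4.22. Lin54 and Lin9, which encode subunits of the DREAM complex of pocket proteins, had 8.22 ± 12.1, 14.7 ± 19.98 and 8.46 ± 6.54 CPM and 9.07 ± 17.2, 21.9 ± 17.9 and 26.6 ± 25.8 CPM. None of these 7 genes passed. The 3 members left out of the test were Cdkn1c, with 7 counts in G1 cells, and Cdkn2a and Cdkn2b, with 0. High p27 or pocket protein RNA was thus not detectable as a property of G1 cells at these counts.

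In the E2F family 2 of 9 genes were lower in each comparison, where 3.92% and 3.53% of all genes tested were lower than S and G2M. Tfdp1, the DP partner of E2F factors (chr8:13338725-13378448), had 20.5 to 133.01 CPM in G1 sums (median 69.5), 212 to 391 in S (median 264) and 148.8 to 353 in G2M (median 199). Its G1 values lay below every S and every G2M value. The ratios were -2.01 ± 0.29 (edgeR adjusted p = 0.00015) and -1.61 ± 0.28 (adjusted p = 0.00114), and the call against S was kept under all 12 alternative settings. Against G2M it was lost without experiment 3 (adjusted p = 0.0849), without experiment 4 (0.127) and without the cells marked for both zones (0.122). E2f7, a repressing E2F, had no count in G1 sums and was at least 342-fold lower than in S and at least 218-fold lower than in G2M, taking 3 counts over all G1 sums as the floor. E2f1 had 13.7 ± 12.6, 42.7 ± 43.6 and 21.4 ± 23.8 CPM and E2f3 had 4.40 ± 3.87, 37.8 ± 16.8 and 14.8 ± 10.999, lower than S in 8 of 8 strata each but not past the threshold (edgeR adjusted p = 0.499 and 0.0737). E2f2 had 63.3 ± 36.9, 80.1 ± 23.3 and 74.5 ± 14.1 CPM and E2f4 had 68.9 ± 67.2, 77.7 ± 42.96 and 82.5 ± 38.6. E2f5 had 19.8, E2f6 had 3.55 and Tfdp2 had 6.73 CPM at the mean in G1 sums, and these 5 genes passed in neither comparison. The median ratio of the family was -1.70 against S and -0.42 against G2M.

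**Figure D2:**
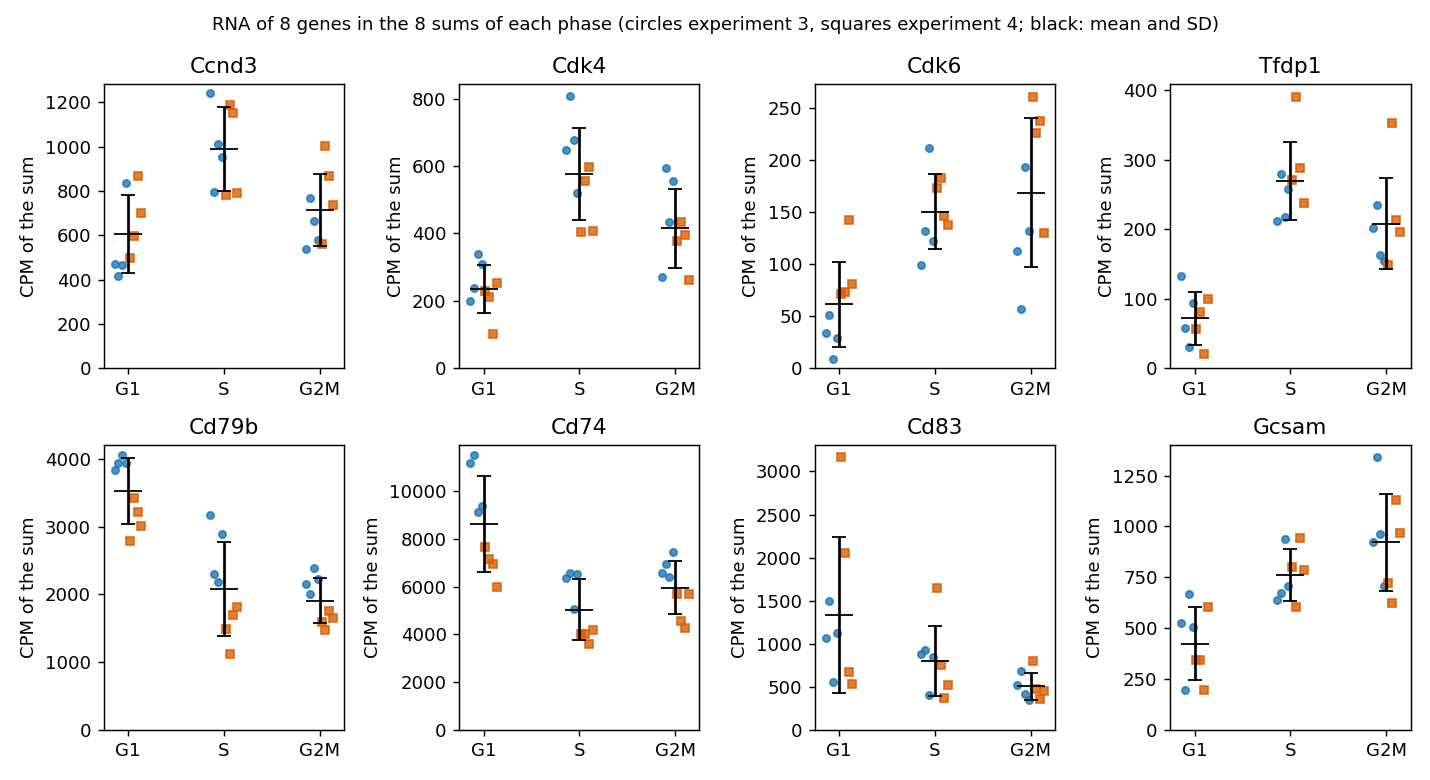
CPM of Ccnd3, Cdk4, Cdk6, Tfdp1, Cd79b, Cd74, Cd83 and Gcsam in the 8 sums of each phase; each point is 1 sum, circles are experiment 3, squares experiment 4, and black bars give mean and SD. Tfdp1 and Cdk4 of G1 sums lie below all S sums, while Cd79b is 2785 to 4057 CPM in G1 and overlaps S only through 2 S sums of experiment 3.

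Outside the score lists, mitotic genes had the lowest list medians in G1 cells. Of 58 such genes tested, 43 were lower against S and 50 against G2M, and none was higher, with median log2 ratios of -3.94 and -5.34. Among all genes tested 3.92% and 3.53% were lower. Without experiment 3 the counts were 14 and 20, and without experiment 4 they were 21 and 35, with medians from -3.38 to -5.34. Smc2, a condensin subunit that compacts chromosomes (chr4:52439221-52488365), had 0 to 22.8 CPM in G1 sums (median 9.46), 87.02 to 298 in S (median 145.2) and 78.04 to 349 in G2M (median 228). No G1 sum came near the other phases. Its ratios were -3.99 ± 0.71 (edgeR adjusted p = 0.0014) and -4.41 ± 0.73 (adjusted p = 0.000527). Both calls were lost without experiment 3 (edgeR adjusted p = 0.2265 and 0.1873).

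Several genes of the mitotic machinery had no count in any G1 sum. Pbk, a mitotic kinase, had 107.4 ± 47.6 CPM in S and 140.98 ± 55.9 in G2M sums, so that G1 was at least 1462-fold and at least 1775-fold lower. Ankle1, a nuclease that cuts DNA bridges, was at least 484-fold lower than S and 1464-fold lower than G2M. The spindle protein gene Troap was at least 855-fold lower and the kinesin gene Kif14 at least 322-fold lower than G2M. Aspm, which organizes spindle poles, had 4 counts in G1 sums against 130.5 ± 54.7 CPM in G2M. The kinesins Kif18a and Kif18b had 2 and 1 counts in G1 sums against 134.9 ± 91.5 and 47.9 ± 28.7 CPM in G2M. Stil, needed for centriole duplication, had 1 count in G1 sums against 37.2 ± 25.95 CPM in S and 48.7 ± 28.1 in G2M, and Zwilch, a kinetochore gene, had 3 counts against 28.9 ± 11.6 CPM in S. Every one of these genes passed in edgeR in the comparisons given. Other genes among the largest falls were Lrr1, BC030867 and Zfp850, with no count in G1. At the same floor their reads were 429-fold, 367-fold and 273-fold lower than in S. Aunip, also among the largest falls, had 9 counts in G1 against 47.5 ± 34.9 CPM in S. The helicase gene Pif1 had 45 counts in G1, all in the sum of experiment 4 at 30 h, against 123.9 ± 44.2 CPM in G2M.

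Cyclins of the later phases followed the same order. Ccnf (chr17:24223230-24251409), which encodes cyclin F, an F-box subunit of a ubiquitin ligase, had 18 counts in G1 sums against 51.3 ± 22.99 CPM in S and 218 ± 90.3 in G2M (edgeR ratios -7.81 ± 0.83 and -10.05 ± 0.88, adjusted p = 5.61e-06 and 3.03e-07). Ccna2, which encodes cyclin A2, had 20.9 ± 45.1, 314 ± 139.4 and 802 ± 96.4 CPM (ratios -5.87 and -7.37). Ccnb1, which encodes cyclin B1, had 33.98 ± 31.5, 181.6 ± 73.3 and 928 ± 269 (-2.96 and -5.40), and the mitotic kinase Plk1 had 2.52 ± 7.04, 61.2 ± 24.7 and 394 ± 120 (-7.07 and -9.78). In abundant structural RNA the loss was partial. Tubb5, a beta tubulin, had 856 ± 216, 3224 ± 545 and 4838 ± 587 CPM (-1.93 and -2.52), and Stmn1, which destabilizes microtubules, had 94.4 ± 51.8, 421 ± 76.2 and 569 ± 116.1 (-2.24 and -2.68). All of these were lower in 8 of 8 strata and passed in both comparisons. Tubb5 has near-identical copies among which the authors' counting could have split reads.

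Replication genes outside the score lists were lower too, with 20 of 35 below S and 15 of 35 below G2M and none higher (median log2 ratios -2.17 and -1.33). Among all genes tested 3.92% and 3.53% were lower. Mcm7, a subunit of the replicative helicase (chr5:138164583-138172111), had 45.6 to 292 CPM in G1 sums (median 172.7), 679 to 924 in S (median 761) and 308 to 756 in G2M (median 549). G1 overlapped neither. Its ratios were -2.33 ± 0.22 (edgeR adjusted p = 1.89e-06) and -1.71 ± 0.22 (adjusted p = 4.95e-05), the latter lost without the cells marked for both zones (adjusted p = 0.087). Another helicase subunit gene, Mcm3, had 345 ± 143.2, 965 ± 134.9 and 393 ± 170.9 CPM, lower than S (-1.59 ± 0.29, edgeR adjusted p = 0.00178) with -0.21 ± 0.29 against G2M (adjusted p = 0.858). Tk1, thymidine kinase of the nucleotide salvage route, had 11 ± 11.6, 175.7 ± 57.4 and 212 ± 78.1 CPM (-4.53 and -4.69), and the clamp loader gene Rfc4 had 39.5 ± 29.2, 364 ± 88.6 and 247 ± 103.5 (-3.32 and -2.77). Dut, which removes dUTP, had 146.7 ± 48.4, 648 ± 155.6 and 387 ± 155.7 (-2.18 and -1.36). These passed in both comparisons. Leaving out experiment 3 or 4 left 8 or 9 replication genes against S and 5 or 5 against G2M.

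Promoters of 2 mitotic genes that were lower in G1 than in both other phases are shown, with that of Ccnd3. The sequences are the 250 bases before the outermost RefSeq start, from GRCm38.p6, read 5′ to 3′ on the gene's strand: Smc2 at chr4:52438971-52439220 (+), Ccnf at chr17:24251410-24251659 (-) and Ccnd3 at chr17:47504801-47505050 (+). Capitals mark 2 short motifs searched on both strands, TTTGAA (the core of the cell cycle homology region, CHR) and CCAAT (the NF-Y box). Also searched were TTTCCCGC and TTTGGCGC (E2F sites) and CACGTG (E box). Smc2 held the CHR letters on the opposite strand, upstream of 1 CCAAT. Ccnf held 2 CCAAT and 2 TTTGAA, the latter 130 and 14 bases before its start. In the Ccnd3 window none of these letters was found. Smc2 and Ccnf were picked among mitotic genes whose window held both TTTGAA and CCAAT, so these matches were fixed by the choice. Ccnd3 was added by name without that condition, so its window is no comparison for theirs. No replication gene lower in both comparisons met the like conditions with an E2F site.
Smc2: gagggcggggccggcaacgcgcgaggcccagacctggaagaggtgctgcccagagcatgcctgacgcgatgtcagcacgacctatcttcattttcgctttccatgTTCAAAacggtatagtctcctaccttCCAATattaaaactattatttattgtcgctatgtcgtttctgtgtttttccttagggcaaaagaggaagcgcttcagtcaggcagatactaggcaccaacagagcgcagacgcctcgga
Ccnf: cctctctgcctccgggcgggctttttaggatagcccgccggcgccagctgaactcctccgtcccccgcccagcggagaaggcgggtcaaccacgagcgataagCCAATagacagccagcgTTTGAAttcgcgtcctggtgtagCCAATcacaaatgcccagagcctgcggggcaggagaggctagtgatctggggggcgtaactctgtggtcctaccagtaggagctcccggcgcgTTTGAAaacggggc
Ccnd3: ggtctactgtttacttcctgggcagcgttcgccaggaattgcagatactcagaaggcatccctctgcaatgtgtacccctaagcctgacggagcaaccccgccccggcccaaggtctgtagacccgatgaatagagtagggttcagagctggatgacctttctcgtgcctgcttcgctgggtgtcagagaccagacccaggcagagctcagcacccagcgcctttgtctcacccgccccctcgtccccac

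Over windows of 300 bases, 1 a gene (250 before to 50 after the start), the CHR letters stood in 51.1% of the mitotic genes outside the score lists (45 of 58 matched a RefSeq promoter), against 12.0% of all tested genes (8058 of 10256 matched) and 18.2% of all 27025 RefSeq promoters. CCAAT stood in 68.9%, 40.1% and 38.02%. The E2F letters stood in 27.6% of the replication genes (29 of 35 matched), 13.3% of the mitotic genes, 3.46% of tested genes and 1.63% of all promoters. For CACGTG the shares were 20.7% of replication genes, 8.89% of mitotic genes, 10.8% of tested genes and 7.24% of all promoters. A match describes letters and shows neither binding nor a cause.

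Some genes of growth and energy supply were lower in G1 cells, and most of their list members passed in neither comparison. In the list of ribosome biogenesis and growth genes 5 of 32 were lower than S and 2 lower than G2M (medians -0.69 and -0.15), where 3.92% and 3.53% of all genes tested were lower. The 2 calls against G2M became 0 with RLE scaling, with sums of at least 10 cells, with no replicate block, without either experiment and without the cells marked for both zones. Npm1, a nucleolar chaperone of ribosome assembly, had 1013 to 2046 CPM in G1 sums (median 1493), 1706 to 4299 in S and 1295 to 2918 in G2M, with overlap in both. Its ratios were -0.92 ± 0.10 (edgeR adjusted p = 1.43e-05) and -0.38 ± 0.10 (adjusted p = 0.0408, lost in 8 of 12 alternative settings), and like Tubb5 it has near-identical copies. Srm, which makes spermidine, had 45.8 ± 23.5, 156.8 ± 85.9 and 46.4 ± 32.6 CPM (-1.71 ± 0.35 against S, edgeR adjusted p = 0.00468, and 0.01 against G2M). Myc, a transcription factor gene often named upstream of this program, had 32.3 ± 55.2, 66.2 ± 23.8 and 26.7 ± 18.9 CPM and did not pass (ratios -2.73 and -0.87, edgeR adjusted p = 0.255 and 0.858).

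In glycolysis 4 of 16 genes were lower than S and 2 lower than G2M (medians -0.78 and -0.39). Ldha, lactate dehydrogenase, had 560 to 766 CPM in G1 sums, 979 to 2291 in S and 646 to 1726 in G2M. G1 lay below every S sum (ratio -1.12 ± 0.17, edgeR adjusted p = 0.000221) and overlapped G2M (-0.64 ± 0.17, adjusted p = 0.0289, lost in 5 of 12 alternative settings). Pkm, pyruvate kinase, had 646 ± 175.1, 1076 ± 305 and 1024 ± 208 CPM (-0.73 and -0.67, both passed, the latter not with no replicate block, adjusted p = 0.0733). Of 25 respiratory chain genes 4 were lower than S and 1, Atp5a1 of the ATP synthase, lower than G2M (1188 ± 240, 1815 ± 277 and 1565 ± 293 CPM, ratios -0.62 and -0.41). Over all genes tested 3.92% were lower than S and 3.53% lower than G2M. The respiratory chain count against G2M was near that share and is not read as a trait of the list. Without experiment 3 or 4 each, 1 glycolysis gene remained past the threshold against S and 0 against G2M.

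G1 cells carried a larger share of B cell receptor and antigen presentation RNA. They also had fewer genes detected, and the part of this in these shares was not tested. Of 19 germinal center B cell identity genes 9 were higher than S and 4 higher than G2M, and none was lower (medians 0.51 and 0.43). Among all genes tested 1.2% and 0.897% were higher. Cd79b, the signalling beta chain of the B cell receptor (chr11:106311341-106314562), had 2785 to 4057 CPM in G1 sums (median 3625), 1113 to 3165 in S (median 1997) and 1466 to 2382 in G2M (median 1881). G1 lay above every G2M sum and overlapped S, although it was the higher in 8 of 8 strata in both. The ratios were 0.81 ± 0.10 (edgeR adjusted p = 5.82e-05) and 0.90 ± 0.10 (adjusted p = 1.26e-05). Its partner Cd79a had 1584 ± 369, 1018 ± 233 and 1031 ± 184.5 CPM (0.64 and 0.60), and the receptor kinase Syk had 384 ± 91.8, 206 ± 53.7 and 228 ± 55.5 (0.93 and 0.79). These 3 passed in both comparisons, although the Syk call against G2M was lost without the cells marked for both zones (adjusted p = 0.155). Ms4a1, Cd22, Btk, Spib and Ebf1 were higher than S by 0.54 to 0.93 and did not pass against G2M. Leaving out experiment 3 or 4 left 1 gene of the list in each comparison, with medians of 0.38 to 0.50.

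The MHC class II list, which serves peptide presentation to T cells, had 7 of 12 genes higher than S and 5 higher than G2M, and none lower (medians 0.66 and 0.49). Among all genes tested 1.2% and 0.897% were higher. All 12 had a ratio above 0 in both comparisons. Cd74, the invariant chain, had 5986 to 11547 CPM in G1 sums (median 8398), 3600 to 6571 in S and 4286 to 7476 in G2M. Ranges overlapped, with higher values in experiment 3 in each phase, and G1 was higher in 8 of 8 strata. Its ratios were 0.78 ± 0.07 (edgeR adjusted p = 6.61e-07) and 0.52 ± 0.07 (adjusted p = 5.6e-05). The class II chains H2-Aa, H2-Ab1 and H2-Eb1 were higher by 0.69, 0.64 and 0.75 against S and by 0.44, 0.46 and 0.57 against G2M. H2-DMa, which loads peptide, was higher by 0.80 and 0.72, while H2-Oa and H2-Ob, which restrain loading, passed against S and not against G2M (1.11 and 0.95, and 0.71 and 0.36, edgeR adjusted p = 0.157 and 0.343). Whether the 2 differences differ was not tested. Against G2M the list kept 0 calls without experiment 3, 2 without experiment 4, 1 without the cells marked for both zones and 0 without the replicate block.

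Light zone genes stood higher in part. Of 24 tested, 2 were higher than S and 3 higher than G2M and none was lower (medians 0.47 and 0.55). Among all genes tested 1.2% and 0.897% were higher. Cd83 (chr13:43785112-43803133), an activation gene by which light zone cells are sorted, had 534 to 3166 CPM in G1 sums (median 1096), 371 to 1641 in S (median 801) and 350 to 799 in G2M (median 461). The ranges overlapped, and G1 was higher in 8 of 8 strata. Its ratios were 0.67 ± 0.18 (edgeR adjusted p = 0.0344) and 1.19 ± 0.18 (adjusted p = 0.000295), and without the cells marked for both zones they were 0.45 and 1.04 and passed in neither (adjusted p = 0.626 and 0.087). Fcer2a, the low-affinity IgE receptor CD23, had 365 ± 146.1, 125.7 ± 57.7 and 128.997 ± 49.8 CPM (1.60 ± 0.33 and 1.46 ± 0.33, edgeR adjusted p = 0.00439 and 0.0108). Il21r, the receptor for the T cell cytokine IL-21, had 457 ± 120, 315 ± 104.8 and 166.9 ± 68.6 CPM and passed against G2M alone (1.52 ± 0.22, adjusted p = 0.000119, and 0.54 ± 0.21 against S, adjusted p = 0.188). The difference of the 2 ratios was not tested. Without the cells marked for both zones none of the 3 light zone calls against G2M remained (edgeR adjusted p = 0.285 for Fcer2a and 0.277 for Il21r), and 1 of the 2 against S did. Without experiment 3 the list had 0 calls in either comparison.

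Among all genes outside the lists the largest rises included other receptors and signalling genes. Against G2M these were Notch2, a receptor of marginal zone B cells, with 102.7 ± 75.8 CPM in G1 and 15.1 ± 9.44 in G2M (2.70 ± 0.43, edgeR adjusted p = 0.000364), and Il4ra, the IL-4 receptor, with 398 ± 114.04 and 117.6 ± 41.5 (1.80 ± 0.25, adjusted p = 7.94e-05) and 198 ± 50.3 in S. Ltb, which encodes lymphotoxin beta, had 576 to 1636 CPM in G1, 266 to 782 in S and 205 to 593 in G2M (1.09 ± 0.19 and 1.61 ± 0.19, adjusted p = 0.000941 and 1.63e-05). Gpr137b, the exonuclease gene Trex1, Pld4, Dennd2d, the MYC antagonist Mxd4, the myosin light chain gene Myl12b and Gimap6, a GTPase gene of lymphocytes, rose against G2M by 2.67, 1.95, 1.80, 1.76, 1.67, 1.64 and 1.56.

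Against S the largest rises were of Tcp11l2, with 91.2 ± 23.6 CPM in G1 and 8.35 ± 10.7 in S (3.90 ± 1.05, edgeR adjusted p = 0.0331), and of Zfp984, with 90.1 ± 107.9 and 12.6 ± 9.92 (3.15 ± 0.87, adjusted p = 0.0384). Pdcd4, an inhibitor of translation initiation, had 56.9 ± 52.9 and 8.46 ± 4.53 (2.45 ± 0.67, adjusted p = 0.0371). Malat1, a long noncoding RNA kept in the nucleus, had 869 ± 620 and 262 ± 159.2 CPM (1.63 ± 0.18, adjusted p = 7.82e-06) and 450 ± 271 in G2M (0.82, a call lost in 4 of 12 alternative settings). Uba7, Rnase6, Atp8a1, Ngly1 and the actin regulator gene Wasf2 rose against S by 1.66, 1.54, 1.51, 1.47 and 1.44. Of the 10 largest rises against S, 3 passed without the cells marked for both zones, 6 without cells under 1500 genes, 1 without experiment 3 and 0 without experiment 4, and all kept their sign. Of the 10 against G2M, 5, 8, 2 and 2 passed in the same settings. The 10 largest falls passed more often, with 6 and 6 against S and 6 and 8 against G2M when an experiment was left out.

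A few dark zone genes passed, in both directions. Of 14 tested, Foxp1 was higher and Gcsam lower against S, and Foxp1 higher and Gcsam, Polh and Hmces lower against G2M (medians -0.15 and -0.39). Over all genes tested 1.2% were higher and 3.92% lower than S, and 0.897% and 3.53% against G2M. In a list of 14 a single call is not read as a trait of the list. Gcsam, a germinal center signalling adaptor, had 196 to 669 CPM in G1 sums (median 426), 605 to 944 in S and 623 to 1343 in G2M. Only the highest G1 values reached the others (ratios -0.89 ± 0.22 and -1.16 ± 0.23, edgeR adjusted p = 0.0225 and 0.00291). Without the cells marked for both zones the Gcsam call against S was lost (adjusted p = 0.0975), as was that of Foxp1 (adjusted p = 0.052). Without experiment 3 or 4 the Gcsam calls were lost against S (edgeR adjusted p = 0.165 and 0.4805) and against G2M (0.1099 and 0.1465). So was the Foxp1 call against S (0.2014 and 0.2011). Without experiment 4 the calls of Foxp1 (0.549) and Hmces (0.181) against G2M were lost, while that of Polh was kept in every setting. Polh, the polymerase eta of hypermutation, had 16.2 to 99.7 CPM in G1 and 163.7 to 583 in G2M sums, with no overlap (-3.11 ± 0.38, edgeR adjusted p = 2.6e-05), and 22.9 to 133.4 in S (-1.16 ± 0.36, adjusted p = 0.0731). Hmces, which shields abasic sites, had 764 ± 450, 980 ± 401 and 1512 ± 443 CPM (-1.13 ± 0.20 against G2M, edgeR adjusted p = 0.00109, and 0.0909 with no replicate block). Foxp1, a transcription factor gene, had 333 ± 110, 152.1 ± 44.6 and 151.3 ± 68.3 CPM (1.12 and 1.16). Cxcr4 had 40.7 ± 41.6, 29.7 ± 18.7 and 37.8 ± 31.1 CPM and did not pass.

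Genes of quiescence and recirculation gave few calls, where 1.2% and 0.897% of all genes tested were higher than S and G2M. Btg1, an antiproliferative gene, was the 1 of 22 that was higher in either comparison, with 292 ± 210, 125.4 ± 40.97 and 141.4 ± 64.6 CPM (1.10 ± 0.28 and 1.04 ± 0.28, edgeR adjusted p = 0.0215 and 0.0319), and the list medians were 0.79 and 0.66. The Btg1 call was lost in 4 of 12 alternative settings against S and in 6 of 12 against G2M, among them without the cells marked for both zones (adjusted p = 0.134 and 0.176). Klf2, a regulator of lymphocyte recirculation, had 197 counts in 12 G1 cells, 21 in 3 S cells and 0 in G2M cells and did not pass (edgeR adjusted p = 0.303 and 0.0727). No gene passed against either phase among 14 BCL2 family genes, 8 p53 targets, 12 plasma cell genes, 9 T cell markers, 4 myeloid markers and 2 stromal markers tested. Of 11 immediate early genes, Junb was higher than G2M (165.7 ± 77.2 against 76.9 ± 39.8 CPM, 1.08 ± 0.30, edgeR adjusted p = 0.0418, lost in 5 of 12 alternative settings).

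**Figure D3:**
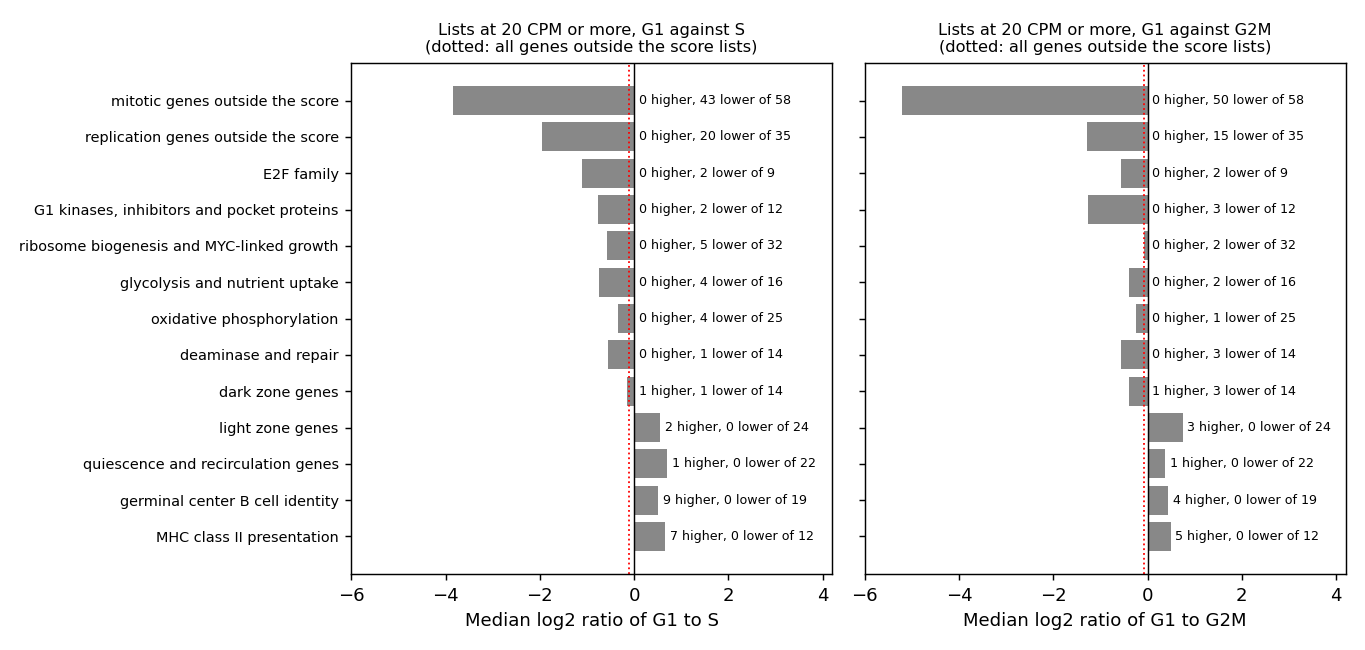
Median log2 ratio of G1 to S (left) and of G1 to G2M (right) over the members of each list with at least 20 CPM; the text at each bar gives the calls among all members tested, and the dotted line is the median of all genes outside the score lists (-0.11 and -0.08). Mitotic genes have the lowest medians, -3.85 and -5.21, and the MHC class II and B cell identity lists lie above 0 in both panels.

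The genes whose pattern over the 24 sums was most like Ccnd3, after removing the stratum means, were Tpi1 (Pearson r = 0.873), Ampd2 (0.855), Exo1 (0.852), Hsp90ab1 (0.844) and Psma1 (0.833). Tpi1 encodes a glycolytic enzyme, Exo1 a nuclease of replication and repair, Hsp90ab1 a chaperone and Psma1 a proteasome subunit. Exo1 belongs to the public S score list, so its pattern over phases is tied to the phase call. Tpi1 had 394 ± 120.98, 839 ± 190 and 544 ± 146.7 CPM in G1, S and G2M sums, the order that Ccnd3 had. The correlations are across sums that share phases and libraries and are given as a description.

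Over time, G1 cells made up a declining part of dark zone cells in experiment 3 and varied without a steady course in experiment 4. In experiment 3 the share was 60.5% at 12 h (26 of 43, 95% exact binomial interval 44.4% to 75.02%), 40.3% at 30 h (25 of 62), 27.4% at 46 h (20 of 73) and 26.1% at 60 h (18 of 69). In experiment 4 it was 41.8% (23 of 55), 22.4% (15 of 67), 24.1% (13 of 54) and 32.1% (25 of 78). In both experiments 12 h had the largest share. The slopes were -0.738 and -0.193 percentage points per hour, and their mean of -0.466 did not pass (p = 0.0556 in a two-sided exact test that permutes the times within an experiment, with 32 of 576 arrangements as large). Without the cells marked for both zones the mean slope was -0.540 with p = 0.0417 by the same exact test. Without cells under 1500 genes it was -0.502 (p = 0.102), with phases rebuilt after thinning -0.461 (p = 0.0764), and without experiment 3 -0.193 (p = 0.583, all exact). The share ran from 23.9% to 45.6% over the 8 plates.

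**Figure D4:**
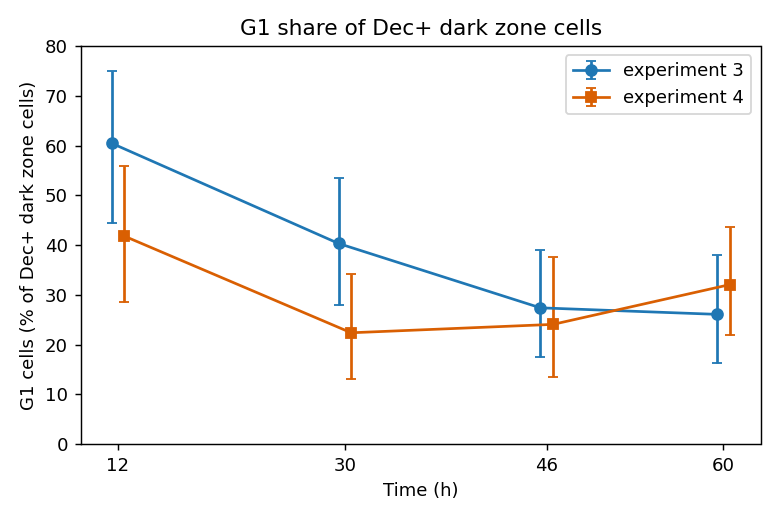
G1 cells as percent of all Dec+ dark zone cells at 12, 30, 46 and 60 h; points are shares, bars exact 95% binomial intervals (counting error only), circles experiment 3 and squares experiment 4. The share is largest at 12 h in both experiments, at 60.5% and 41.8%.

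Within G1 cells no gene passed between times. Among 9205 genes tested with edgeR, 0 differed from 12 h at 30, 46 or 60 h after Benjamini-Hochberg adjustment. Before adjustment 1.26%, 3.39% and 0.837% of the genes had p under 0.05, and by DESeq2 1.83%, 5.00% and 0.978% passed after adjustment. The slope over hours gave 0 of 8532 (1.93% unadjusted, 0.375% by DESeq2). The test of whether later times differed from 12 h in G1 otherwise than in S and G2M cells gave 0 of 10617 (5.35% unadjusted, 4.68% by DESeq2). The residual degrees of freedom were 3 for single times, with 2 sums each, 5 for the slope and 13 for the test across phases.

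Ccnd3 in G1 sums was 471, 416, 467 and 837 CPM at 12, 30, 46 and 60 h in experiment 3 and 496, 595, 866 and 703 in experiment 4. The 60 h value was above the 12 h value in both experiments. The log2 ratio of 60 h to 12 h was 0.69 ± 0.36 and the slope 0.015 per hour (unadjusted p = 0.0433, edgeR adjusted p = 1), so neither passed. Cd83 was 1066, 1500, 553 and 1125 CPM in experiment 3 and 3166, 2058, 676 and 534 in experiment 4. At 46 h it lay below 12 h in both (ratio -1.72 ± 0.52, unadjusted p = 0.00973, edgeR adjusted p = 1). Of 23 light zone genes tested over time, 6 had a ratio above 0 at 30 h against 12 h, 1 at 46 h and 2 at 60 h, with medians of -0.24, -1.72 and -0.96, where all genes had -0.05, -0.35 and 0.05. The 12 MHC class II genes had medians of 0.13, 0.02 and -0.24 at 30, 46 and 60 h, with 7, 7 and 0 above 0.

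Other genes named for the time course were scarce in G1 sums. Myc was 24.1, 60.4, 11.6 and 0.255 CPM in experiment 3 and 158.9, 0, 0 and 2.82 in experiment 4, and Ccnd2 was 5.14, 76.7, 0 and 1.02 and then 129.002, 0, 0 and 9.88. Both had their highest value at 30 h in experiment 3 and at 12 h in experiment 4. Cxcr4 was 20.4, 14.4, 3.29 and 2.04 CPM in experiment 3 and 57.9, 65.6, 125.5 and 36.9 in experiment 4, so the experiments did not share a course. Klf2 was highest at 30 h in both, at 18.9 and 24.4 CPM, and Cdkn1b (1.53 to 17.2 CPM) and Rbl2 (0.855 to 49.5 CPM) showed no shared course.

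**Figure D5:**
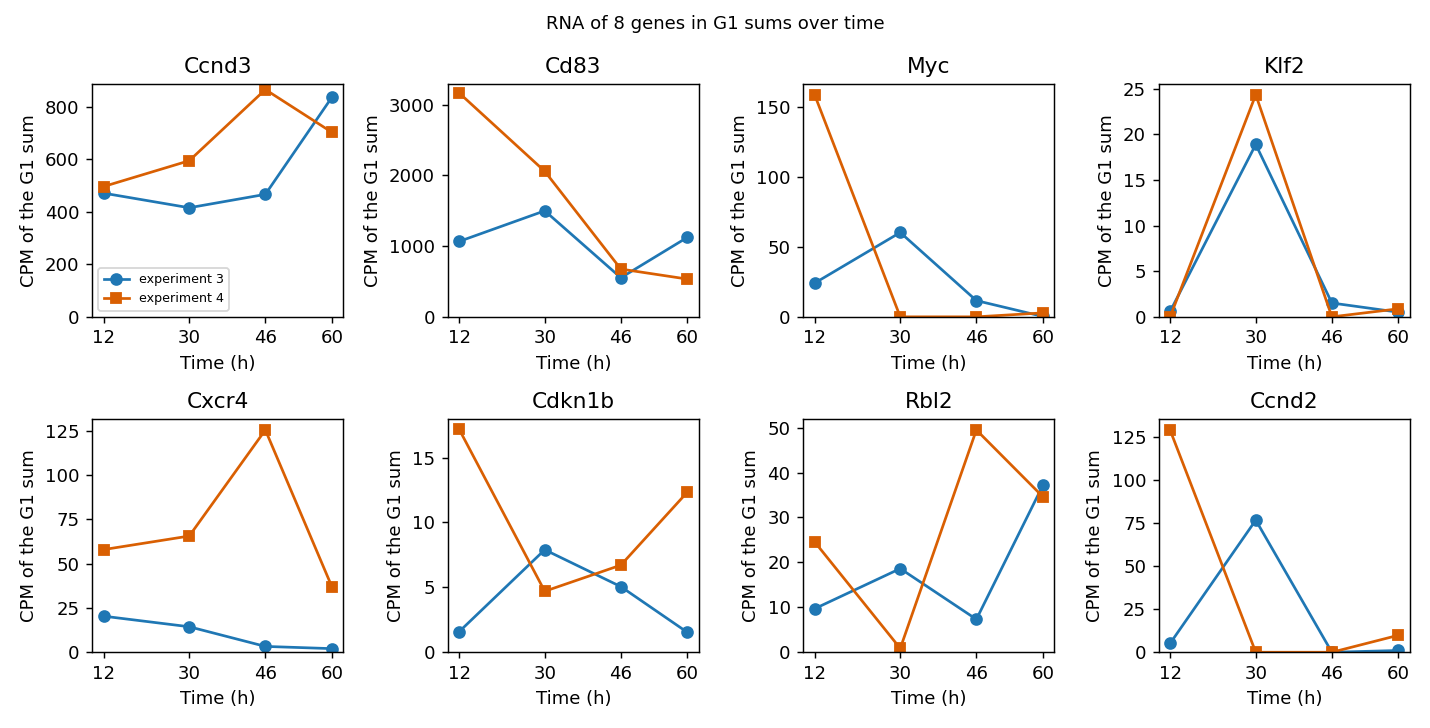
CPM of Ccnd3, Cd83, Myc, Klf2, Cxcr4, Cdkn1b, Rbl2 and Ccnd2 in the G1 sum of each experiment at 12, 30, 46 and 60 h; each point is 1 sum, circles experiment 3 and squares experiment 4. Ccnd3 is higher at 60 h than at 12 h in both experiments, and none of the 8 genes passed the test over time.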

How the data were processed

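RNA of single Dec+ dark zone cells was analysed from the deposited combined table of experiments 3 and 4, which holds expected counts per gene and cell that the authors had not normalized. These cells numbered 165 in G1, 171 in S and 165 in G2M. The build mm10 and the tools Seurat 3.1.4, RSEM 1.3.1 and STAR 2.6 are named in the submitters' processing notes, with their use not given. The deposited cell table gave the phase, the S and G2M score, the percent of mitochondrial reads and the sort intensity of each cell, in the authors' arbitrary units. In the combined table some rare genes are set to 0 (1328 genes in experiment 3 and 1662 in experiment 4, of 25125), so marker genes at 0 were read from the tables per plate. Rows of experiment 2 were not used here, and of the other sorted groups only the Dec+ dark zone cells of experiment 5 enter, in the closing observations.

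Counts were summed per experiment, time and phase (at least 5 cells), rounded and tested with edgeR 4.0.16 in R 4.3.3 (filterByExpr, TMM, quasi-likelihood test), with experiment and time together as the block and 14 residual degrees of freedom. The phases of 1 stratum shared experiment and time, which is the pairing, and the labels do not say whether they came from the same animals. Times were tested in G1 sums with the experiment as block. Sort measures and shares were tested by exact permutation in Python 3.11.15 with numpy 2.4.6, pandas 2.3.3 and scipy 1.17.1. DESeq2 1.42.0 and limma 3.58.1 (log2 of mean CPM plus 1) served as alternatives, beside RLE scaling, no filter on low counts, larger sums, no block, leaving out an experiment, and cell filters. Floors of fold changes take 3 counts over all G1 sums and apply to reads, not to molecules. No doublet caller was run, and each well was sorted to hold 1 cell. The kit does not mark strand, so overlapping antisense genes cannot be told apart. The fits were tested on simulated data.

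The named genes are the 10 largest rises and falls outside the score lists that passed, with at least 20 CPM in 1 phase and the same sign in 8 of 8 strata, all genes of the D cyclin, G1 kinase and E2F lists, and Myc, Cxcr4 and Cd83; for times, Ccnd3, Ccnd2, Myc, Cdkn1b, Rbl2, Klf2, Cxcr4 and Cd83; and the 5 genes most like Ccnd3. Of the genes the rule fixes by name, 1 is not reported here. Other list members are examples chosen after their values were seen. The cells, members and lists were chosen with earlier results of these data known. Gene coordinates and promoters are from RefSeq, GRCm38.p6.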

Additional observations from a re-analysis of the deposited data

Results flagged for a closer look

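Of 40 sets of 8 strata examined, 3 held a stratum far from the others, where chance gives about 1 in 20 sets. Another 22 sets of gene ratios were left out because a sum was at 0. Cdk6 had a log2 ratio of G1 to S of -4.433 at 46 h in experiment 3, while the other strata ran from -2.02 to -0.0383. Against G2M, Mxd4 had 4.606 at 46 h in experiment 3 (others 0.834 to 2.49) and Myl12b had 4.215 at 12 h in experiment 3 (others 0.334 to 2.10). All 3 strata kept the direction of the others.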

How the results depend on the processing

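Followed through alternative settings were 383 results past the threshold. They were gene results, with up to 12 settings each, and the 7 sort and depth comparisons that passed, with fewer settings. Of the 383, 65 were kept in every setting and 0 turned in direction. Genes of the score lists were among them, and the direction of those was set by the phase call. Of the genes tested against S 5.12% passed, and 11.9% with DESeq2, 2.84% without cells flagged for both zones, 0.825% without experiment 3 and 1.18% without experiment 4; against G2M 4.43% passed, and 10.8% with DESeq2, 8.05% with equal weight per cell in limma, 2.75% without flagged cells, 0.855% without experiment 3 and 1.39% without experiment 4. Left-out experiments leave 4 strata and the other causes were not tested. With no replicate block the shares were 3.95% against S and 3.69% against G2M. In G1 cells over time the main 0% became 1.83%, 5.00% and 0.978% with DESeq2 at 30, 46 and 60 h and 0.00942%, 0.0848% and 0.00942% (1, 9 and 1 genes) with all phases in 1 fit; for the slope it became 0.375% and 0.117%. For the difference of time effects between phases it became 4.68% with DESeq2, 0.00943% with sums of at least 10 cells, 0.00942% with no replicate block, 0.00942% without experiment 3, 0.00957% without experiment 4 (1 gene each) and 0.0377% without cells under 1500 genes. The slope of the G1 share was -0.540 points per hour without flagged cells and -0.738 without experiment 4 (exact permutation p = 0.0417 for both) and -0.193 without experiment 3 (exact permutation p = 0.583). Of 12 comparisons of sort and depth measures 7 passed, 4 without flagged cells and 0 without experiment 3 or without experiment 4. Single times could not be fitted with 1 experiment. Depth limits scarce genes such as Klf2 and Cdkn1b.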

Other observations

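Experiment 5 held Dec+ dark zone cells labelled WT, KO and TA, with 1 group each and so no test. It had no part in the choice of the named genes, but its phases too are given beside S and G2M scores of the same RNA. For genes that move with these scores, such as mitotic genes, agreement was largely built in by the phase call. The counts below are therefore a description and no independent support. Of the 10 largest falls, all 10 were lower in G1 than in S and in G2M cells in WT and TA and than in G2M cells in KO. Of the 10 largest rises, 9 and 9 were higher in WT G1 cells (38 cells) than in S and G2M cells, 8 of 10 and 8 of 9 in TA (23 cells) and 10 of 10 against G2M in KO (48 cells). Among all genes with at least 20 CPM, 49.3% to 53.3% were higher in G1. Ccnd3 had 448 CPM in WT G1 cells (exact Poisson interval of the reads 430 to 467), 557 in S (531 to 583) and 447 in G2M. The intervals take reads as independent, which reads without molecular identifiers are not. They leave out the spread between cells and are too narrow to compare phases. In TA cells it had 342.8, 339.0 and 171.6 CPM, and in KO cells 98.3 in G1 and 61.1 in G2M. The median forward scatter, a measure of cell size recorded in that experiment, was 92551 units in G1, 99355.5 in S and 110826 in G2M cells of WT, and 93138, 98979 and 116839 in TA.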
